A study of Mus musculus with 6 samples.

Results

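Cholangiocytes are the epithelial cells that line the bile ducts. The marker genes described here are the 8 rows of the deposited gene table whose symbol is Krt7, Krt19, Epcam, Sox9, Spp1, Pkhd1, Cftr or Cldn7, out of 45777 genes in all. All 8 were found in the table, and 7 of them passed the filter on low counts, among 16197 genes tested. Cldn7 did not pass. RNA came from whole liver of C57BL/6 mice aged 10 weeks, and both groups carried Pak4 alleles flanked by loxP sites (flox/flox). The WT group (3 libraries) had no Cre transgene, and the Pak4_KO group (3 libraries) also carried Alb-Cre, in which the albumin promoter drives Cre recombinase. Alb-Cre is made in hepatocytes, and, as background, the albumin promoter is already active in the fetal hepatoblasts from which both hepatocytes and bile duct cells arise. A transcript level in whole liver mixes all cell types, so that fewer cells of a type and less RNA per cell cannot be told apart.

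Bile duct cells arise in the embryo when hepatoblasts next to the portal vein receive Notch and TGF-beta signals and switch on SOX9. The mature ducts keep a simple epithelium bound by keratins 7 and 19, sealed by claudins and marked by EpCAM at the cell surface. They alter bile on its way to the gut, with the chloride channel CFTR driving fluid and bicarbonate into the duct, and carry a primary cilium in which fibrocystin, the Pkhd1 product, is found. These cells make up a small share of the liver, and some of their markers are shared with other cells: Spp1 with macrophages and stressed hepatocytes, Sox9 with hepatocytes at the portal edge, and Krt7 and Krt19 with the mesothelium on the liver surface.

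The sequences upstream of a transcript start of 3 of these genes are shown because Pkhd1 and Epcam were the markers whose groups did not overlap and Spp1 was the most abundant. Each is the 250 bases before a transcript start that RefSeq annotates in GRCm38.p6, read 5′ to 3′ on the strand of the gene. Capitals mark matches to the partial HNF1 motif GTTAAT, the TEAD motif GGAATG, the RBPJ motif TGGGAA, the SOX motif ACAATG and the GC box GGGCGG. Each was searched on both strands. All 8 symbols were looked up and 6 were matched, Cldn7 and Spp1 with more than 1 start.
Pkhd1 (chr1:20618058-20618307, - strand): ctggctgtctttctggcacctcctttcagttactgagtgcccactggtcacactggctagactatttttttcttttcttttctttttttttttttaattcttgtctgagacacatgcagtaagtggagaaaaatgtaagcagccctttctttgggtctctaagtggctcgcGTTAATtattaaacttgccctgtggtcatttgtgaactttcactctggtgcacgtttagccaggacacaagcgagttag
Epcam (chr17:87635729-87635978, + strand): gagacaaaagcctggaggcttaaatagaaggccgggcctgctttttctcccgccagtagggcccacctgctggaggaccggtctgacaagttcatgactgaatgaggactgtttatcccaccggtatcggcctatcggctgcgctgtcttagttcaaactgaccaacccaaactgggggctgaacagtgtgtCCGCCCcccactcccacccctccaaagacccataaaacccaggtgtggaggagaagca
Spp1 (chr5:104434861-104435110, + strand): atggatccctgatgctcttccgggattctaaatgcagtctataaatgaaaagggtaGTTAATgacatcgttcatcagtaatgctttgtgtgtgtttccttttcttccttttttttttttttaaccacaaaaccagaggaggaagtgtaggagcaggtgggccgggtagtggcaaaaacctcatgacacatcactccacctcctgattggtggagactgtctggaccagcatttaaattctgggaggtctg
The start used for Pkhd1 lies inside the gene as annotated, which reaches 20618082, so the last bases of its window overlap the gene. The Pkhd1 sequence held 1 match, the partial HNF1 motif between 79 and 74 bases before the start. The Spp1 sequence held the same partial motif between 194 and 189 bases before the start. The window of a second annotated Spp1 start (chr5:104435942-104436191) held 0 matches. Over all 32851 promoters of this length in the table, 6.43% held GTTAAT. The Epcam sequence held 1 GC box, a motif found in 32.7% of promoters. These stretches were unlike in base composition, with 42.0% G and C for Pkhd1, 43.6% for Spp1 and 56.4% for Epcam against a median of 52.4%. GGAATG was found in 12.6% of promoters, TGGGAA in 21.6% and ACAATG in 10.7%, and none of these 3 motifs was found in the windows shown. Of the other matched members, Cftr and Krt7 held 6 and 4 GC boxes, some of them overlapping in Cftr. Cldn7 held GGAATG between 70 and 65 bases before 1 of its starts. Before another Cldn7 start were TGGGAA, between 164 and 159 bases, and a GC box, between 6 and 1 bases.

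Libraries held 39603272 to 52521400 reads. Pak4 stood at 5.93, 7.15 and 6.44 CPM (reads scaled to library size with TMM factors) in WT and at 1.37, 2.24 and 1.90 CPM in Pak4_KO, log2 fold change -1.82 (SE 0.24, edgeR adjusted p = 0.0169), so the labels and the targeted gene went together. Hepatocyte markers were abundant in every library, Alb alone holding 23248 to 38497 CPM. WT replicate 3 and Pak4_KO replicate 1 lay at the opposite ends of the second principal component of all tested genes, at -46.8 and 42.6. No label says that the libraries came from separate animals, and the p-values therefore reflect library-to-library spread, which may be technical. In all 6 libraries more genes had 2 reads than 1, and whether a read pair was counted as 1 or 2 is not stated. Among low counts above 2 reads, 48.3% to 49.4% were even, depending on the library.

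Per transcript length, the markers spanned a wide range. In TPM as deposited, a level scaled for transcript length and depth, Spp1 had a mean of 44.3 over the 6 libraries, Pkhd1 of 1.90, Sox9 of 1.26, Epcam of 1.22, Krt19 of 0.728, Krt7 of 0.319, Cldn7 of 0.195 and Cftr of 0.0679. Spp1 stood apart from all others, its lowest library (27.6 TPM) being above the highest value of any other member (2.71 TPM, Pkhd1). Each further pair of neighbours in this order had overlapping ranges over the libraries. Read numbers were small below Pkhd1: summed over the 6 libraries, Spp1 had 10253 reads, Pkhd1 3778, Sox9 839, Epcam 408, Krt19 159, Krt7 82, Cftr 71 and Cldn7 42.

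Of the 7 tested markers, 6 had a higher and 1 a lower level in Pak4_KO than in WT, with a median log2 fold change of 0.75, the value of Krt7. Without Pak4_KO replicate 3 that median was 0.48, and without WT replicate 1 it was 0.98. Krt7 and Cftr, with 0 reads in WT replicate 2, passed the filter on low counts only with Pak4_KO libraries included. Their positive signs, and the median, are therefore not independent of that filter. Where 10 reads were needed in every library, 4 members were tested and 3 were positive (median 0.54). No member passed the edgeR quasi-likelihood test over all genes (0 of 7 called), where 0.469% of the 16197 tested genes were called. At an unadjusted p under 0.05 there were 2 members, Pkhd1 and Epcam, both higher, where 8.21% of all tested genes were (4.51% higher and 3.69% lower). The DESeq2 Wald test called 1, Pkhd1, and 2.06% of all genes to which it gave an adjusted p, while limma-voom and limma-trend on TPM called 0. Among all tested genes 8214 of 16197 had a positive log2 fold change and the median was 0.004. In Pkhd1 and Epcam each Pak4_KO library was above each WT library, and of all tested genes 7.35% showed this. The other 5 tested markers overlapped between the groups.

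**Figure D1:**
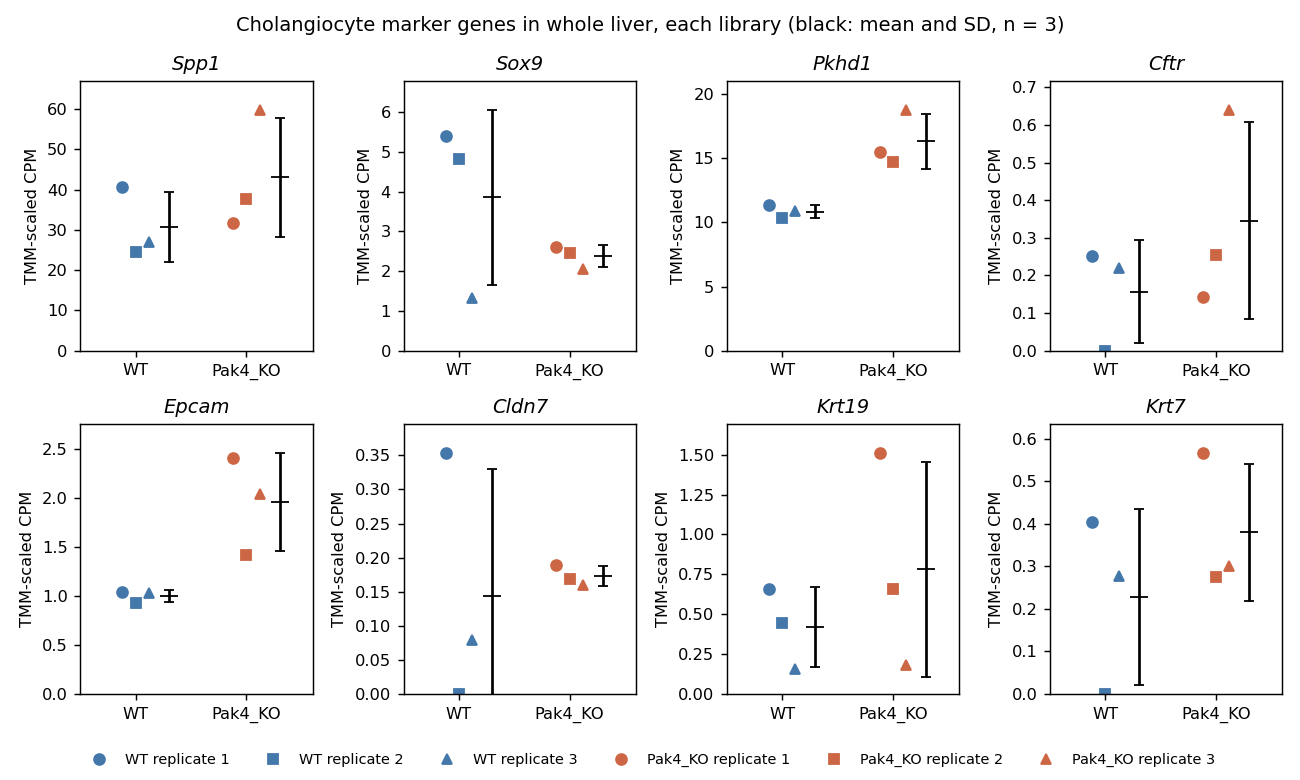
TMM-scaled CPM of the 8 cholangiocyte marker genes (vertical axes, each from 0) in the 3 WT (blue) and 3 Pak4_KO (orange) libraries, marker shapes giving the replicate number and black bars the mean and SD (n = 3), the lower WT bar of Cldn7 being cut at 0. Pkhd1 and Epcam separate the groups, Sox9 is low in WT replicate 3, and Krt7, Cftr and Cldn7 are at 0 in WT replicate 2.

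Pkhd1 encodes fibrocystin, a large membrane protein of the primary cilium whose loss causes recessive polycystic kidney and liver disease. Its level was 11.4, 10.3 and 10.9 CPM in the WT libraries and 15.5, 14.7 and 18.8 CPM in the Pak4_KO libraries. The WT libraries lay close together and every Pak4_KO library was above them, Pak4_KO replicate 3 being the highest. Means were 10.8 ± 0.523 and 16.3 ± 2.14 CPM (SD, n = 3 each), log2 fold change 0.59 (SE 0.15) or 1.51-fold, with a 95% interval of 1.19- to 1.91-fold. The edgeR adjusted p was 0.243, at rank 265 of 16197 by p. By the DESeq2 Wald test the adjusted p was 0.0482, and over all alternatives it ran up to 0.614. Pkhd1 spans chromosome 1, 20057779 to 20618082 (GRCm38, NCBI gene 241035, minus strand), and the antisense gene 4930486I03Rik, which shares 208 exonic bases with it, had 0 reads in the table.

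The other epithelial genes that act at the cell surface differed in how many reads they had. Epcam encodes the epithelial cell adhesion molecule, which in healthy adult liver is a marker of bile duct cells (NCBI gene 17075, chromosome 17, 87635979 to 87651127, plus strand). It stood at 1.03, 0.926 and 1.03 CPM in WT and at 2.41, 1.42 and 2.04 CPM in Pak4_KO, from 41 to 52 reads and 67 to 102 reads. The groups did not overlap, and WT libraries varied little. Means were 0.998 ± 0.0625 and 1.96 ± 0.500 CPM (SD, n = 3 each), log2 fold change 0.97 (SE 0.29, edgeR adjusted p = 0.344) or 1.96-fold, with a 95% interval of 1.23- to 3.10-fold.

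Cldn7 encodes claudin 7, a tight junction protein that binds EpCAM (NCBI gene 53624, chromosome 11, 69964779 to 69967886, plus strand). It had 14, 0 and 4 reads in WT and 8 in each Pak4_KO library, too few for the test. That is 0.353, 0 and 0.0795 CPM against 0.189, 0.169 and 0.160 CPM. WT replicate 2, with 0 reads, had a 95% counting interval of up to 0.0776 CPM, beside a floor of 0.0631 CPM (3 reads). WT replicate 1 was the highest of the 6 libraries, so the WT group lay on both sides of Pak4_KO. A difference in Cldn7 was not detectable at this depth.

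Keratins 7 and 19 form the intermediate filaments of duct epithelium. Krt19 (NCBI gene 16669, chromosome 11, 100140810 to 100145926, minus strand) stood at 0.656, 0.442 and 0.159 CPM in WT and at 1.51, 0.656 and 0.180 CPM in Pak4_KO. Both groups spread widely, with the lowest level of each group in replicate 3 and the highest of all in Pak4_KO replicate 1 (64 reads). The log2 fold change was 0.90 (SE 0.76, edgeR adjusted p = 0.845). Without Pak4_KO replicate 1 it was 0.01, without Pak4_KO replicate 3 it was 1.38, and with WT replicate 3 and Pak4_KO replicate 1 both left out it was -0.39.

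Krt7 (NCBI gene 110310, chromosome 15, 101412403 to 101427806, plus strand) had 16, 0 and 14 reads in WT and 24, 13 and 15 reads in Pak4_KO, or 0.404, 0 and 0.278 CPM against 0.566, 0.275 and 0.300 CPM. WT replicate 2 was the lowest and Pak4_KO replicate 1 the highest, and the other libraries of both groups lay between 0.275 and 0.404 CPM. The log2 fold change was 0.75 (SE 0.90, edgeR adjusted p = 0.915), and 0.16 without WT replicate 2. The antisense gene Gm671 shares 77 exonic bases with Krt7 and had 4 reads in all libraries together, and the strand setting of the counting is not given in the sources used here.

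Cftr encodes the chloride channel mutated in cystic fibrosis, which in liver is found in duct cells rather than hepatocytes (NCBI gene 12638, chromosome 6, 18170687 to 18322770, plus strand). It had 10, 0 and 11 reads in WT and 6, 12 and 32 reads in Pak4_KO, or 0.252, 0 and 0.219 CPM against 0.142, 0.254 and 0.640 CPM. Pak4_KO replicate 3 stood well above the other libraries, and Pak4_KO replicate 2 was level with the highest WT library. The log2 fold change was 1.15 (SE 0.95, edgeR adjusted p = 0.842) with a 95% interval of 0.495- to 10.0-fold, and 0.34 without Pak4_KO replicate 3. WT replicate 2 is the library with 0 reads for Krt7, Cftr and Cldn7, though it held 229 reads of Sox9 and 1164 of Spp1. The antisense gene Gm15592 shares 129 exonic bases with Cftr and is absent from the deposited genes, so its reads are not known.

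Sox9 encodes the transcription factor that marks the first duct cells of the embryo and stays on in adult ducts (NCBI gene 20682, chromosome 11, 112782210 to 112787757, plus strand). It was the only tested member with a lower mean in Pak4_KO, at 5.40, 4.82 and 1.33 CPM in WT and 2.60, 2.46 and 2.06 CPM in Pak4_KO. The Pak4_KO libraries lay close together, while in WT 2 libraries were above all of them and WT replicate 3 was below all of them. The 95% counting interval of WT replicate 3 (67 reads, 1.03 to 1.69 CPM) did not reach that of WT replicate 2 (229 reads, 4.22 to 5.49 CPM). Means were 3.85 ± 2.20 and 2.37 ± 0.277 CPM (SD, n = 3 each), log2 fold change -0.70 (SE 0.45, edgeR adjusted p = 0.774). Without WT replicate 3 it was -1.11 (adjusted p = 0.123), and without WT replicate 1 it was -0.38 (adjusted p = 1.00).

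Spp1 encodes osteopontin, a secreted phosphoprotein that binds integrins and CD44 (NCBI gene 20750, chromosome 5, 104435111 to 104441053, plus strand). It stood at 40.7, 24.5 and 27.1 CPM in WT and at 31.7, 37.7 and 59.8 CPM in Pak4_KO. WT replicate 1 lay above 2 of the Pak4_KO libraries, and Pak4_KO replicate 3 was the highest. Means were 30.7 ± 8.68 and 43.1 ± 14.8 CPM (SD, n = 3 each), log2 fold change 0.49 (SE 0.27, edgeR adjusted p = 0.717), and 0.17 without Pak4_KO replicate 3. With 1164 to 2990 reads per library, the counting intervals of Spp1 were narrow (23.1 to 25.9 CPM in WT replicate 2 and 57.7 to 62.0 CPM in Pak4_KO replicate 3), and the spread between libraries of a group exceeded them. On the same strand, Gm42793 shares 309 exonic bases with Spp1 and is absent from the deposited genes, so its reads are not known.

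**Figure D2:**
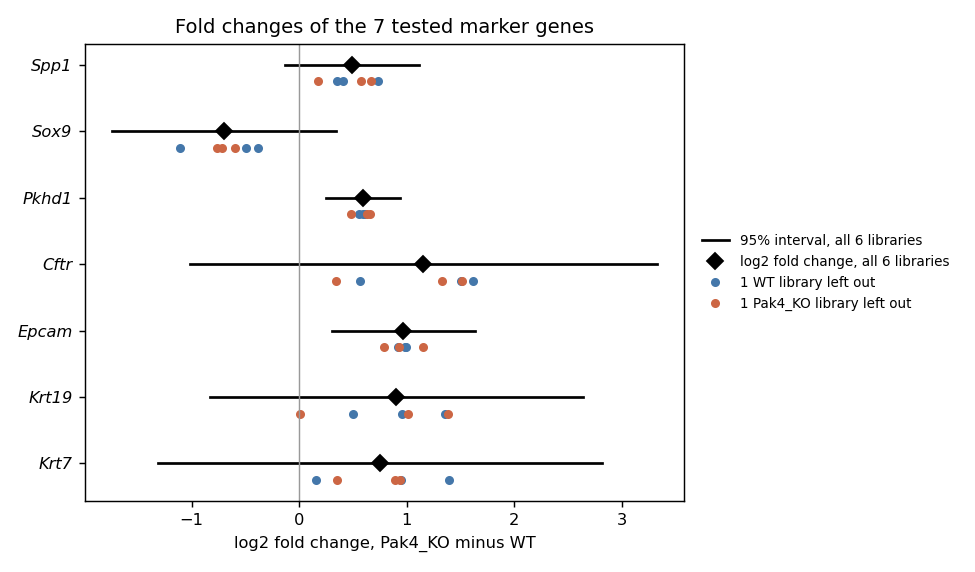
Log2 fold change (Pak4_KO minus WT, horizontal axis) of the 7 tested marker genes, as diamonds with 95% intervals from the fit of all 6 libraries, and as small points below them from fits without 1 WT (blue) or 1 Pak4_KO (orange) library. Intervals of Pkhd1 and Epcam lie above 0, those of the other 5 genes include 0, and the Krt19 point nearest to 0 (0.01) is the fit without Pak4_KO replicate 1.

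The markers did not rank the libraries alike. Krt7, Krt19 and Epcam were highest in Pak4_KO replicate 1, Spp1, Pkhd1 and Cftr in Pak4_KO replicate 3, and Sox9 and Cldn7 in WT replicate 1. WT replicate 2 was the lowest for Krt7, Epcam, Spp1, Pkhd1, Cftr and Cldn7, and WT replicate 3 for Krt19 and Sox9. Averaged over the 7 tested markers after each was standardised across libraries, the libraries stood at 0.23, -0.85 and -0.66 in WT and at 0.53, 0.20 and 0.56 in Pak4_KO, so that WT replicate 1 fell within the Pak4_KO range. The genes whose log2 CPM followed this average most closely over the 6 libraries were Sgsm3, Btla, Svep1, Pcdhgb4, Prss53 and Tbc1d20, with Pearson r from 0.969 to 0.987. These are the top of 12839 genes with a mean of at least 1 CPM, ranked over 6 points that share genotype, and no test is given for them.

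A further 22 markers of bile duct epithelium were followed beside the 8 members. Of these 18 were tested, 15 with a positive and 3 with a negative log2 fold change, and their median was 0.64. None was called by edgeR (0 of 18), and DESeq2 called Mmp7 and Dcdc2a. At an unadjusted p under 0.05 there were 5, all higher, where 4.51% of all tested genes were. In 7 of the 18 each Pak4_KO library was above each WT library, against the 7.35% of all genes given above, and in none below. Mmp7, Tspan8 and Krt23, among these 7, passed the filter on low counts only through the Pak4_KO libraries, where they were high. In WT, Tspan8 had 31, 10 and 12 reads and Krt23 had 18, 0 and 11. Counts that include these genes are not independent of that filter, and the list was chosen with earlier results known. With WT replicate 3 and Pak4_KO replicate 1 both left out, 11 of the 18 were positive, and 13 without WT replicate 3 or without Pak4_KO replicate 3 alone. The median was then 0.25 with both left out, and 0.42 without Pak4_KO replicate 1 alone. Where 10 reads were needed in every library, which left Mmp7 out, 14 were tested, 12 of them positive (median 0.60).

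Mmp7 encodes matrilysin, a protease made by injured ducts that also cuts osteopontin (NCBI gene 17393, chromosome 9, 7692090 to 7699585). It stood at 0.404, 0.210 and 0.179 CPM in WT (16, 10 and 9 reads) and at 1.39, 1.21 and 1.64 CPM in Pak4_KO (59, 57 and 82 reads). The Pak4_KO libraries were all above the WT libraries, at 5.38-fold or log2 fold change 2.43 (SE 0.40). Mmp7 passed the filter on low counts through the Pak4_KO libraries, where it was high, so its separation is not independent of that filter. It was not tested where 10 reads were needed in every library. The edgeR adjusted p was 0.0528, and it was 0.0478 with no filter on low counts, 0.0248 with limma-trend on log2(TPM + 1), 0.000146 with DESeq2 and 0.226 without Pak4_KO replicate 3. Dcdc2a, whose human counterpart is mutated in a cholangitis of the newborn with ciliary defects, stood at 1.09, 0.947 and 0.974 CPM in WT and at 1.91, 2.43 and 3.22 CPM in Pak4_KO (log2 fold change 1.33, SE 0.28, edgeR adjusted p = 0.134, DESeq2 adjusted p = 0.00827). In both genes the WT libraries were the lower ones throughout.

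**Figure D3:**
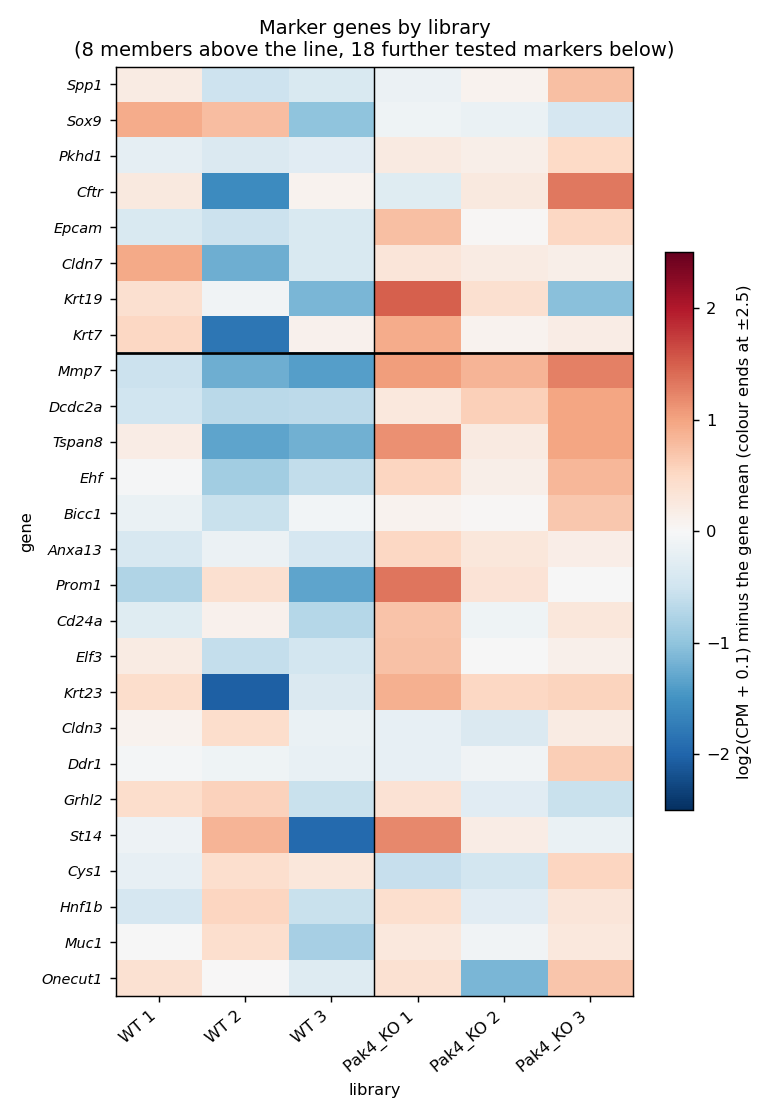
Level of each marker gene (rows) in each library (columns), as log2(CPM + 0.1) minus the mean of the gene over the 6 libraries, red for above and blue for below, with the 8 members above the line and 18 further tested duct markers below it. Mmp7, Dcdc2a, Pkhd1 and Epcam are blue in WT and red or near white in Pak4_KO, and Sox9 runs the other way in WT replicates 1 and 2.

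Other keratins and junction proteins share the work of Krt7, Krt19 and Cldn7. Among 19 tested keratin, claudin and other junction genes, 7 were positive and 12 negative, with a median of -0.13. Without Pak4_KO replicate 2, where 20 were tested, 10 were positive and 10 negative (median -0.01), and without WT replicate 2 the median was -0.04. EdgeR called 0 of them, with 2 at an unadjusted p under 0.05, both lower, and DESeq2 called the same 2, Krt8 and Krt18. These encode keratins 8 and 18, which hepatocytes and duct cells both make. Krt8 stood at 575, 653 and 593 CPM in WT and at 293, 423 and 442 CPM in Pak4_KO (log2 fold change -0.65, SE 0.18, edgeR adjusted p = 0.275, DESeq2 adjusted p = 0.0317). Krt18 stood at 414, 411 and 406 CPM in WT and at 203, 270 and 320 CPM in Pak4_KO (log2 fold change -0.63, SE 0.17, edgeR adjusted p = 0.282, DESeq2 adjusted p = 0.0431). For both, all Pak4_KO libraries were below all WT libraries, where 6.06% of tested genes were.

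Of 14 tested partners of EpCAM and claudin 7, 9 were positive (median 0.09, and 0.06 to 0.19 without 1 library, the highest without WT replicate 1), with 0 called by edgeR or DESeq2 and 3 higher at an unadjusted p under 0.05. The smallest p belonged to Spint1, an inhibitor of the protease that cuts EpCAM (log2 fold change 1.34, SE 0.39, edgeR adjusted p = 0.318), and to Tspan8, a tetraspanin found with EpCAM (1.66, SE 0.55, adjusted p = 0.429). Tspan8 is also counted among the further duct markers above, and it passed the filter on low counts only through the Pak4_KO libraries. Of 13 tested osteopontin receptors and proteases, 4 were positive (median -0.05, but 0.05 without Pak4_KO replicate 2, 0.03 without WT replicate 1 and -0.22 without Pak4_KO replicate 1), with 0 called by edgeR and, by DESeq2, Mmp7 alone. At an unadjusted p under 0.05 these were Mmp7, higher, and the integrin subunit Itga4, lower (-0.82, SE 0.33, adjusted p = 0.561).

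Among 20 tested genes that specify ducts through Notch, TGF-beta and their transcription factors, 13 were positive (median 0.12). Without Pak4_KO replicate 3, where 22 genes of this list were tested, 10 were positive and 12 negative (median -0.12). The set of genes changed with the library left out, so this turn in direction does not come from the same genes alone. The median was 0.44 without Pak4_KO replicate 2, and 0.03, 0.06 and 0.08 without WT replicates 3, 2 and 1. EdgeR called 0, with 3 higher and 2 lower at an unadjusted p under 0.05, and DESeq2 called Hhex, lower. Hhex, a homeobox factor of liver and duct development, stood at 5.88, 5.28 and 5.23 CPM in WT and at 0.826, 1.21 and 3.20 CPM in Pak4_KO (log2 fold change -1.64, SE 0.45, edgeR adjusted p = 0.275), with Pak4_KO replicate 3 nearest to WT. Tgfb2, a TGF-beta ligand, stood at log2 fold change 1.08 (SE 0.37, adjusted p = 0.455). Of 17 tested YAP and TAZ targets, 9 were positive (median 0.03), 0 were called by edgeR or DESeq2, and 2 higher and 1 lower had an unadjusted p under 0.05. Their median was -0.07 without Pak4_KO replicate 3 and 0.16 without Pak4_KO replicate 2. F3, tissue factor, stood at 0.85 (SE 0.26, adjusted p = 0.344) and Ccn1, a matricellular protein, at -1.37 (SE 0.45, adjusted p = 0.413).

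The channels and transporters of duct secretion were split, with 7 of 15 tested genes positive (median -0.01, and -0.03 to 0.13 without 1 library), 0 called by edgeR or DESeq2 and 2 higher at an unadjusted p under 0.05. These were Car2, a carbonic anhydrase that supplies bicarbonate (log2 fold change 0.65, SE 0.20, edgeR adjusted p = 0.358), and Slc5a1, a sodium-glucose cotransporter (0.77, SE 0.32, adjusted p = 0.581). Slc51a, Gpbar1 and Adcy8 had 0 reads in all libraries. Of 20 tested genes of the primary cilium and fibrocystic disease, 13 were positive (median 0.09, and 0.02 without Pak4_KO replicate 3), with 0 called by edgeR, Dcdc2a called by DESeq2, and Dcdc2a and Bicc1 (0.57, SE 0.24, adjusted p = 0.585) higher at an unadjusted p under 0.05. Of 8 tested genes of ductular reaction and immature liver cells, 4 were positive (median 0.002, and below 0 without any 1 library, down to -0.43 without Pak4_KO replicate 2), with 0 called by edgeR or DESeq2 and Lcn2, the lipocalin of the acute phase, lower at an unadjusted p under 0.05 (-0.43, SE 0.18, adjusted p = 0.586). Prom1, a stem and duct cell surface protein, stood at 1.09 (SE 0.52, adjusted p = 0.653).

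**Figure D4:**
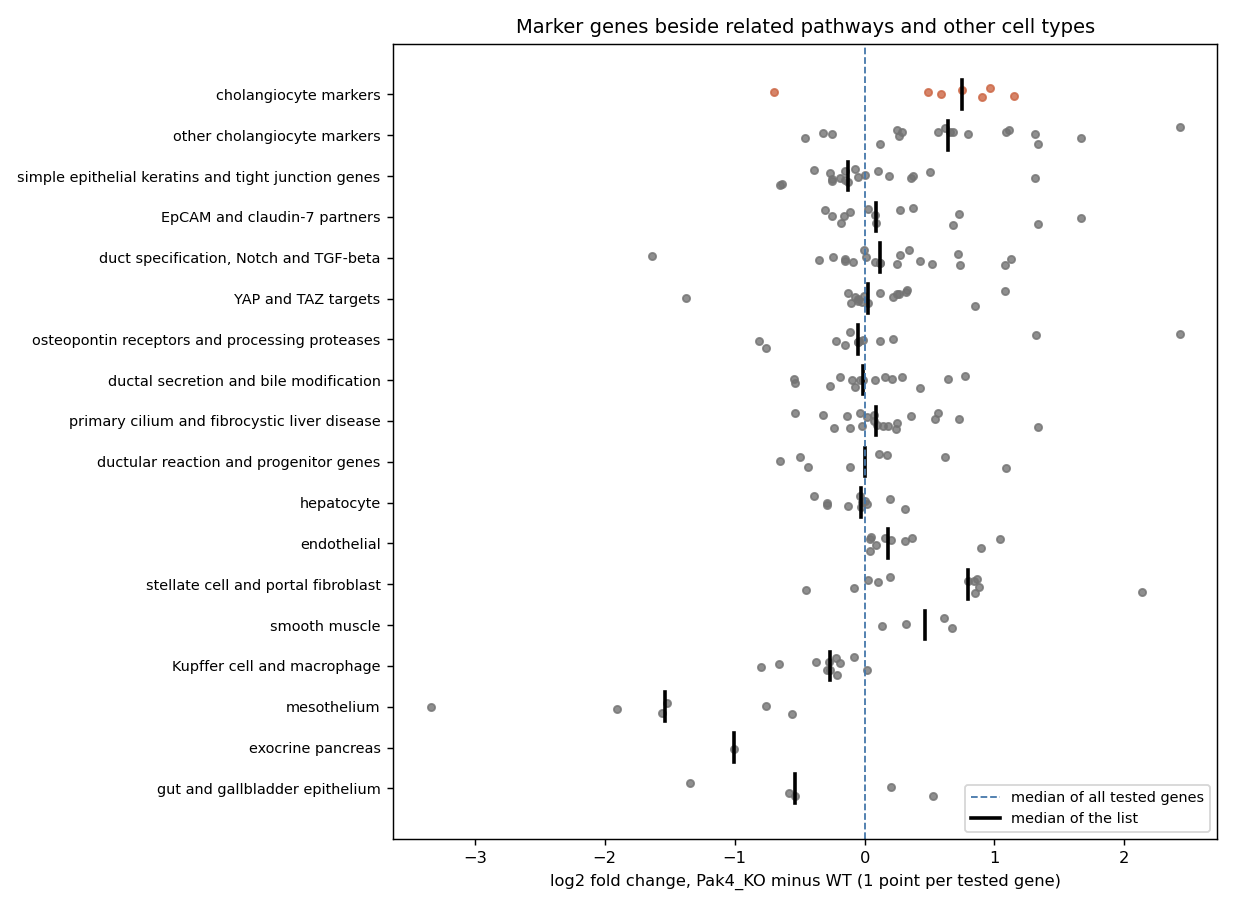
Log2 fold change (Pak4_KO minus WT, horizontal axis) of each tested gene in the 18 gene lists (rows), the 8-member list in orange, with the list median as a black bar and the median of all tested genes as a dashed line. Medians of the 2 cholangiocyte lists and of the stellate cell and portal fibroblast list lie between 0.64 and 0.79, and that of mesothelium at -1.54.

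Markers of the other liver cells were counted in the same way. Of 11 tested stellate cell and portal fibroblast markers, 9 were positive (median 0.79), with 0 called by edgeR and Lrat by DESeq2. At an unadjusted p under 0.05 there were 6, all higher, where 4.51% of all tested genes were. Eln, among these 6, had 14, 11 and 0 reads in WT and 46, 34 and 36 in Pak4_KO. It passed the filter on low counts only through the Pak4_KO libraries, where it was high, so its difference is not independent of that filter. Lrat, which esterifies retinol in stellate cells, stood at log2 fold change 0.86 (SE 0.19, edgeR adjusted p = 0.152), and Fbln2, a matrix protein of portal fibroblasts, at 0.85 (SE 0.25, adjusted p = 0.333). The summed level of all 12 markers was 194 to 297 CPM in WT and 190 to 359 CPM in Pak4_KO, so the sums overlapped. Most of each sum was Dcn and Reln, with log2 fold changes of 0.03 and -0.08, so the sums say little about the less abundant markers. Without 1 library the median ran from 0.50 (without Pak4_KO replicate 1) to 0.83 (without Pak4_KO replicate 2). All 10 endothelial markers were positive (median 0.18), with 2 higher at an unadjusted p under 0.05, 0 called by edgeR and Vwf by DESeq2. The sinusoidal markers Stab2, Lyve1 and Clec4g, named after their values were seen, stood at 0.05, 0.04 and 0.16. Without Pak4_KO replicate 3, or without WT replicate 2, 7 of 10 were positive (medians 0.10 and 0.11), and without Pak4_KO replicate 2 the median was 0.35. Vwf, the von Willebrand factor of larger vessels, stood at 1.04 (SE 0.30, adjusted p = 0.303) and Cd34 at 0.89 (SE 0.33, adjusted p = 0.500), and the summed level was 256 to 321 CPM in WT and 263 to 373 CPM in Pak4_KO. Smooth muscle markers had 4 of 4 tested positive (median 0.46, sums of 7.36 to 8.04 CPM in WT and 3.82 to 16.1 CPM in Pak4_KO), 0 called by edgeR or DESeq2 and 0 at an unadjusted p under 0.05, with Myh11 at 0.67 (SE 0.56) and Acta2 at 0.61 (SE 0.57). The smooth muscle median was 0.10 without Pak4_KO replicate 2, 0.31 without Pak4_KO replicate 1 and 1.07 without Pak4_KO replicate 3. The part of these cell types in the duct marker values was not tested.

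Some cells share a member's transcript. Mesothelial markers, which matter for Krt7 and Krt19, had 6 of 6 tested negative (median -1.54), with summed levels of 3.48 to 7.80 CPM in WT and 1.70 to 3.02 CPM in Pak4_KO that did not overlap. The median was -0.89 without Pak4_KO replicate 1, where 1 of 8 tested was positive, -0.99 without WT replicate 1 and -2.42 without Pak4_KO replicate 3. Of these 0 were called by edgeR or DESeq2 and 2 were lower at an unadjusted p under 0.05, Muc16 (30, 12 and 21 reads in WT against 6, 0 and 0, log2 fold change -3.34, SE 1.06, edgeR adjusted p = 0.382) and Msln, mesothelin (-1.56, SE 0.51, adjusted p = 0.401). Muc16 passed the filter on low counts only through the WT libraries, where it was high, so its difference is not independent of that filter. With at least 10 reads in every library, 2 mesothelial markers were tested and 2 were negative (median -1.06). Kupffer cell and macrophage markers, which matter for Spp1, had 10 of 11 negative (median -0.26, sums of 348 to 460 CPM in WT and 267 to 362 CPM in Pak4_KO). That median was -0.06 without Pak4_KO replicate 2 and -0.14 without WT replicate 2. EdgeR called 0 and DESeq2 called Mpeg1, a pore-forming protein of macrophages (-0.79, SE 0.17, edgeR adjusted p = 0.143), which with the lysosomal protein Cd68 (-0.66, SE 0.24, adjusted p = 0.492) made 2 lower at an unadjusted p under 0.05. Hepatocyte markers had 4 of 11 positive (median -0.02, 0.02 without WT replicate 3 and -0.12 without Pak4_KO replicate 1, sums of 80855 to 100925 CPM in WT and 86382 to 97826 CPM in Pak4_KO), 0 called by edgeR or DESeq2 and 0 at an unadjusted p under 0.05, with Serpina1c at -0.39 (SE 0.18) and Cyp2e1 at -0.29 (SE 0.17). Their part in the Krt7, Krt19, Spp1 and Sox9 values was not tested.

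Epithelia of the pancreas, gut and gallbladder express several members. Of 12 exocrine pancreas genes, 10 had 0 reads in all 6 libraries (Cela3b, Cpa1, Cpb1, Prss2, Pnlip, Ctrb1, Clps, Ptf1a, Reg1 and Amy2a5). The 1 tested, Cela1, a pancreatic elastase, had a lower mean in Pak4_KO (11.04 CPM in WT and 5.50 CPM in Pak4_KO, log2 fold change -1.01, SE 0.37, edgeR adjusted p = 0.503, unadjusted p = 0.0257) and was not called by DESeq2, with list sums of 10.2 to 12.04 CPM in WT and 2.98 to 9.86 CPM in Pak4_KO. Of 13 gut and gallbladder genes, Agr2, Tff1, Muc5b, Cdx1 and Cdx2 had 0 reads in all libraries. Of 5 tested, 2 were positive (median -0.54, and 0.01 without WT replicate 2), with 0 called by edgeR or DESeq2 and list sums of 38.6 to 54.3 CPM in WT and 41.7 to 52.5 CPM in Pak4_KO, beside 41.0 to 60.1 CPM and 54.6 to 84.0 CPM for the 8 members together. Most of the members' sum was Spp1. Lgals4 stood at -0.54 (SE 0.17, edgeR adjusted p = 0.377, the 1 gene with an unadjusted p under 0.05) and Tff3 at -0.58 (SE 0.36, adjusted p = 0.758). The part of these epithelia in the members' values was not tested.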

How the data were processed

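Liver RNA was sequenced in 6 libraries, 3 per genotype, made with a stranded Illumina TruSeq mRNA kit, per the labels' protocols. HISAT2 2.1.0, Bowtie2 2.3.4.1 and StringTie 2.1.3b, with FastQC 0.11.7 and bcl2fastq 2.20.0, are the tools in the submitters' processing notes, and mm10 is the build. Not given in the sources used here are the strand setting, the annotation release, the step order and what was done with multiply matching reads. In 1 table the authors deposited unnormalized read counts per gene, used in the tests, and TPM, used for levels between genes and in 2 alternatives. The FPKM also deposited by the authors were not used. Columns were matched to samples by genotype and replicate number.

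The fit of all genes used edgeR 4.0.16 (R 4.3.3) on the counts (filterByExpr by group with its minimum count of 10, TMM, glmQLFit and glmQLFTest, two-sided), with Benjamini-Hochberg adjustment over 16197 genes and calls under 0.05. SE is the absolute log2 fold change over the square root of F, and 95% intervals use the fit's degrees of freedom. Intervals of single libraries are exact Poisson, and the floor is 3 reads. Both cover counting error only. Limma 3.58.1 and DESeq2 1.42.0 gave alternatives. Fits that left libraries out applied the filter on low counts anew, so the genes tested could differ from those of the main fit. On data simulated for Pak4_KO against WT (16197 genes, 3 simulations) the share of changed genes recovered was 2.49% at 1.5-fold, 33.3% at 2-fold and 79.3% at 4-fold, with 11.2% of calls false.

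The members and the 17 lists beside them were chosen with earlier results of these data known. Named in the text are the members, Pak4 and, from each list, up to 4 called genes or, with none called, the 2 with the smallest p, together with listed markers at 0 reads. Krt23 and Eln are named only for how they passed the filter on low counts, and Dcn and Reln for their share of a summed level. The 6 genes most like the members were ranked by Pearson correlation with the mean standardised log2 CPM (prior count 2), among genes with a mean of at least 1 CPM. NCBI identifiers matched RefSeq (GRCm38.p6) for 45679 genes; sequences are from RefSeq and exon overlaps from GENCODE M21, both on the mm10 assembly. The levels of 1 untested list gene are not reported here. Replicate numbers did not pair the libraries.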

Additional observations from a re-analysis of the deposited data

How the results depend on the processing

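The 6 positive signs of Krt7, Krt19, Epcam, Spp1, Pkhd1 and Cftr and the negative sign of Sox9 held in every fit that tested them, except that Krt19 turned to -0.39 with WT replicate 3 and Pak4_KO replicate 1 left out together, an alternative chosen after seeing the data. With the DESeq2 Wald test 1 member, Pkhd1, was called higher (log2 fold change 0.59), against 0 in each other fit; the cause was not tested. Without 1 library, members called stayed at 0 to 0 in each direction. Cldn7 was tested only with no filter on low counts (log2 fold change 0.29, adjusted p = 0.983). Over all genes, 43 were called higher and 33 lower. DESeq2 called 175 and 159, and a minimum of 10 reads in every library, which tested 14513 genes and 4 members, called 16 higher; leaving out 1 library gave 22 to 34 higher (fewest without WT replicate 1, and 24 to 25 without WT replicate 2, Pak4_KO replicate 2 or Pak4_KO replicate 3) and 13 to 47 lower (13 without Pak4_KO replicate 2 or Pak4_KO replicate 3, 21 without WT replicate 2). In the fit with replicate number as a replicate block, 39 were called higher and 34 lower, and 0 members. The numbers are not given as marking a shared litter or batch, and deviations of same-numbered libraries from their group means correlated at 0.07, -0.20 and 0.15. A read count of 42 to 159 for Cldn7, Cftr, Krt7 and Krt19 over all libraries limits what could be detected.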
